A study of Homo sapiens with 20 samples.

Results

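Replication genes moved in opposite directions after decitabine (DAC) in 6 human lung cancer lines, and the lines were set apart by that measurement. In H1299 and CL1-5 the median change of 50 DNA replication genes was above 0, and these are called the 2 rising lines. In A549, CL1-0, H1792 and PC9 it was below 0, and these are called the 4 falling lines. The change of a gene in a line is log2((DAC FPKM + 0.1)/(Mock FPKM + 0.1)) of a line's 2 libraries. FPKM is a read number scaled to transcript length and library size. The line just inside the rising set was CL1-5, with a replication median of 0.25, and the line nearest to it in the falling set was CL1-0, with -0.27. The comparison uses 12 mRNA-seq libraries of the 20 samples in the series, 4 from rising and 8 from falling lines, and covers the 13363 of 36076 genes that averaged 1 FPKM or more. Because the changes chose the lines, differences of change between the sets are described without a test, and replication genes count for nothing in them. The Mock levels of the lines were tested, although each Mock library is also one side of the change that set its line apart.

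Cells were cultured with 100 nM DAC for 72 h and then for 3 days without drug, and Mock cells received PBS in its place. There was 1 library per line and treatment, so the lines themselves are the replicates, and nothing was replicated within a line. All 6 are lines of non-small cell lung cancer. CL1-5 was selected from CL1-0 for invasiveness, so 1 related pair is split between the sets. The 4 H1299 and CL1-5 libraries are the only ones behind every statement on rising lines.

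DAC is a deoxycytidine analog. It enters cells through nucleoside transporters, is phosphorylated by deoxycytidine kinase, and is built into new DNA, where it traps DNA methyltransferases, so that DNA loses methylation as it is copied. Cytidine deaminase and dCTP-hydrolysing enzymes remove it before that step. Replication genes are switched on by E2F factors as cells pass from G1 into S phase, and p53 can hold cells back from that step through CDKN1A.

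Between 22234485 and 25303899 reads were recovered per library in 10 of the 12 libraries, and the H1299 libraries held 59735913 in Mock and 52634234 after DAC. Of the values that stood for 1 to 20 reads, 85.5% of those of H1299 in Mock and 81.9% after DAC were even, against 39.2% to 41.5% in the 10 others, so its reads are not independent counts. The part of this difference in the results was not tested. Summed FPKM of 15 leukocyte markers ranged from 0.874 to 12.6 over the libraries, and 3 of the 15 averaged 1 FPKM or more. Of 20 epithelial genes 19 reached it, but EPCAM, an adhesion protein of epithelial cells, lay at 0.0555 in H1299 and 0.132 in CL1-5 against 3.19 in A549, 0.151 in CL1-0, 4.32 in H1792 and 235 in PC9 FPKM in Mock. This marker was thus near 0 in H1299, CL1-5 and CL1-0.

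The replication genes themselves, given as a description of what separated the lines, had median changes of 0.46 in H1299 and 0.25 in CL1-5 against -0.54 in A549, -0.27 in CL1-0, -0.73 in H1792 and -0.43 in PC9. Of the 50, 43 had a higher change in both rising lines than in every falling line, and 18 did so with a gap of at least 0.5 between the sets, the lowest change in one set minus the highest in the other. Over all 13363 genes 1668 (12.5%) were higher without overlap, 201 of them with that gap (1.5%). Another 1007 (7.54%) were lower without overlap, 112 (0.838%) with the gap. The rule used this contrast, so nothing is read from these shares. RRM2, the small subunit of ribonucleotide reductase, had the largest difference of change on the list. Its changes were 0.86 in H1299 and 0.72 in CL1-5 against -0.45 in A549, -0.40 in CL1-0, -1.39 in H1792 and -0.30 in PC9. MCM6, a subunit of the replicative helicase, changed by 0.15 in H1299 and 0.34 in CL1-5 against -0.64 in A549, -0.35 in CL1-0, -0.80 in H1792 and -0.46 in PC9. TYMS, which makes thymidylate, changed by 0.69 in H1299 and 0.70 in CL1-5 against -0.55 in A549, -0.28 in CL1-0, -0.80 in H1792 and -0.28 in PC9. In bulk libraries more cycling cells and more RNA per cell cannot be told apart.

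The promoters of 2 proliferation genes are shown because they carry the E2F-type word TTTGGCGC, held by 14.3% of replication promoters and 1.14% of those of the genes compared. MCM6 lies at chr2:135876394-135876693, minus strand, and CDC25A, a phosphatase that drives entry into S phase, at chr3:48188368-48188667, minus strand, both from RefSeq on GRCh38.p14, 250 bases before to 50 after the transcription start, written 5′ to 3′ on the gene's strand. Capitals mark TTTGGCGC in the printed orientation, and both strands were searched. TTTGGCGC or TTTCCCGC occurred in 38.1% of the 42 replication promoters with an entry, in 19.2% of 26 G1-S promoters, in 6.06% of 33 mitosis promoters, in 3.91% of 9468 promoters of the genes compared and in 2.31% of all 27305 promoters of the table. Both words can overlap other E2F-type words, and a match is only a match of letters.
MCM6: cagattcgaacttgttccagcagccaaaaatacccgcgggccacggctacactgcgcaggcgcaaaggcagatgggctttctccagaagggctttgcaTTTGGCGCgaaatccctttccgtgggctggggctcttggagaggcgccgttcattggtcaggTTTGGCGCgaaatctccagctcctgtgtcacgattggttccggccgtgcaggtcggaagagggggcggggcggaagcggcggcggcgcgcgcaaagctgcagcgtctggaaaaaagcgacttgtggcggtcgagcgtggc
CDC25A: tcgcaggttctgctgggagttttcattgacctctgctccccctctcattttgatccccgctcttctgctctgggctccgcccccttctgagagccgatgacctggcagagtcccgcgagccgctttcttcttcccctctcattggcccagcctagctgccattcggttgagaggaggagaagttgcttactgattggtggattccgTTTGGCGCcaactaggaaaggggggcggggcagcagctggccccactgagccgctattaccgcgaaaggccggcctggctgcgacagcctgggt

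**Figure D1:**
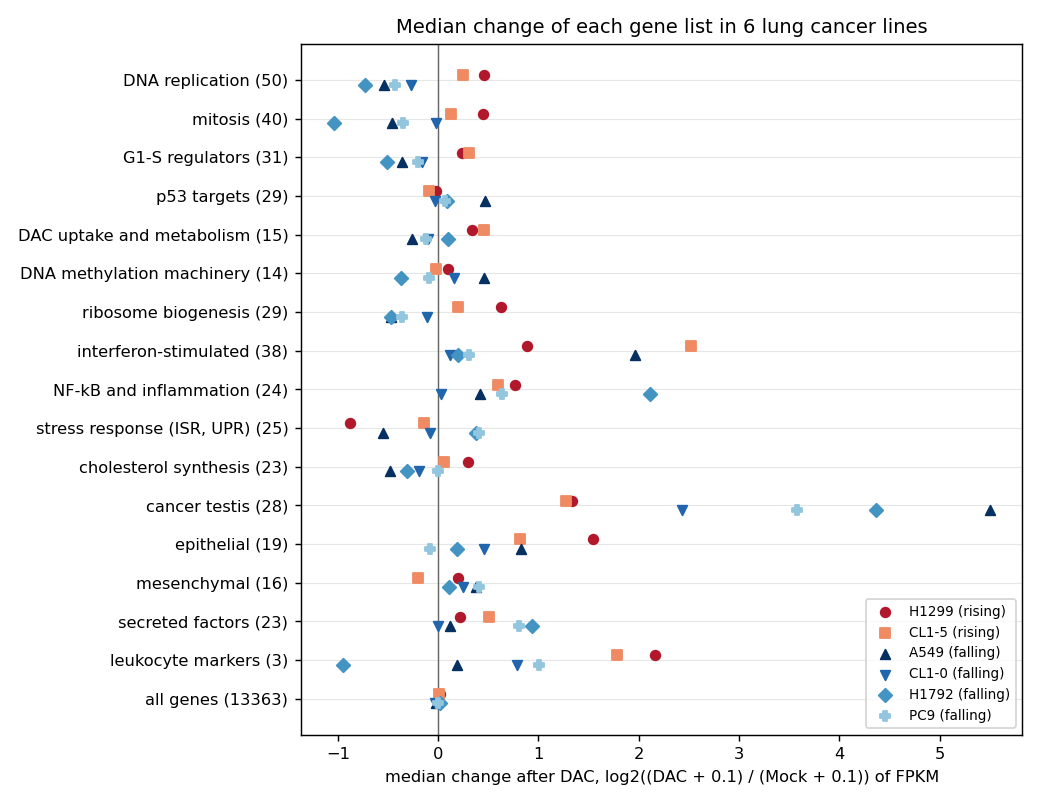
Median change after DAC of each gene list (number of genes compared in parentheses) on the horizontal axis, as log2((DAC + 0.1)/(Mock + 0.1)) of FPKM, with 1 point per cell line, red for rising and blue for falling lines. Replication, mitosis, G1-S and ribosome biogenesis medians lie above 0 in H1299 and CL1-5 and below 0 in the 4 falling lines, and the medians over all 13363 genes lie close to 0, from -0.028 in CL1-0 to 0.019 in H1792.

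Mitotic genes moved with the replication genes but separated the lines less cleanly. Their medians were 0.45 in H1299 and 0.12 in CL1-5 against -0.46 in A549, -0.025 in CL1-0, -1.04 in H1792 and -0.35 in PC9, and 24 of 40 did not overlap, 2 of them with the gap, beside 12.5% and 1.5% of all genes. CL1-0 was the falling line with the smallest mitotic change, and 18 of its 40 mitotic genes were above 0. Summed FPKM in CL1-0 was 346387 in Mock and 305528 after DAC. On a common sum its mitotic median would lie above 0. Regulators of the G1-S step had medians of 0.24 in H1299 and 0.31 in CL1-5 against -0.36 in A549, -0.16 in CL1-0, -0.51 in H1792 and -0.20 in PC9. Of 31 regulators 15 were higher without overlap, 7 with the gap, and 1 was lower, beside 12.5%, 1.5% and 7.54% of all genes. CCNE1, the cyclin that starts S phase with CDK2, had changes of 1.3 in H1299 and 0.71 in CL1-5 against -0.092 in A549, -0.28 in CL1-0, 0.047 in H1792 and -0.046 in PC9. MYBL2, a transcription factor of cycling cells, changed by 1.27 in H1299 and 0.46 in CL1-5 against -0.70 in A549, -0.28 in CL1-0, -1.23 in H1792 and -0.45 in PC9. CDC25A changed by 1.25 in H1299 and 0.57 in CL1-5 against -0.17 in A549, -0.43 in CL1-0, -0.97 in H1792 and -0.17 in PC9. E2F1, the founding activator of the family, changed by 0.34 in H1299 and 0.36 in CL1-5 against -1.05 in A549, -0.37 in CL1-0, -0.48 in H1792 and 0.039 in PC9, and PC9 was the falling line in which it did not fall.

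Targets of p53 had medians close to 0 in 5 lines and above it in A549, with -0.023 in H1299 and -0.092 in CL1-5 against 0.47 in A549, -0.035 in CL1-0, 0.086 in H1792 and 0.068 in PC9. Of 29 measured targets 5 were lower without overlap, 1 was higher, and 0 had the gap, against 7.54% and 12.5% of all genes. CDKN1A, the cell cycle inhibitor, did not separate the lines, with changes of 0.85 in H1299 and 0.64 in CL1-5 against 0.94 in A549, 0.042 in CL1-0, 1.35 in H1792 and 1.06 in PC9. TP53INP1, a stress-induced partner of p53, was higher after DAC in A549, H1792 and PC9 and lower in both rising lines, with changes of -0.92 in H1299 and -0.40 in CL1-5 against 1.85 in A549, -0.035 in CL1-0, 1.7 in H1792 and 2.0 in PC9. CL1-0 lay near 0. TNFRSF10C, a decoy receptor for the death ligand TRAIL, changed by -0.61 in H1299 and -0.66 in CL1-5 against 1.17 in A549, -0.23 in CL1-0, 0.79 in H1792 and 1.0 in PC9. CL1-0 again was the falling line nearest to the rising set. BBC3, which encodes the pro-death protein PUMA, changed by -1.73 in H1299 and -0.43 in CL1-5 against 0.034 in A549, -0.0016 in CL1-0, 0.66 in H1792 and 0.59 in PC9.

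Among 15 measured genes of DAC uptake and metabolism, 6 had a higher change in both rising lines and 0 a lower one, 40.0% against the 12.5% over all genes. Whether these genes moved with replication, which set the lines apart, was not tested. The medians were 0.33 in H1299 and 0.46 in CL1-5 against -0.26 in A549, -0.10 in CL1-0, 0.10 in H1792 and -0.12 in PC9. SLC29A2, an equilibrative nucleoside transporter at chr11:66129992-66139685 (GRCh37), stood at 1.76 in H1299 and 4.64 in CL1-5 against 8.97 in A549, 17.3 in CL1-0, 8.2 in H1792 and 18.3 in PC9 FPKM in Mock. After DAC it stood at 3.27 in H1299 and 8.28 in CL1-5 against 6.34 in A549, 14.5 in CL1-0, 6.6 in H1792 and 17 in PC9. Its Mock level was thus lower in both rising lines than in any other line. Its change was above 0 in these and below 0 in the falling lines, and after DAC CL1-5 lay above A549 and H1792.

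DCTPP1, a dCTP pyrophosphatase that also hydrolyses decitabine triphosphate, changed by 0.72 in H1299 and 0.72 in CL1-5 against -1.18 in A549, -0.44 in CL1-0, -0.068 in H1792 and -0.22 in PC9. NME1, a nucleoside diphosphate kinase, changed by 0.70 in H1299 and 0.46 in CL1-5 against -0.98 in A549, -0.22 in CL1-0, -0.043 in H1792 and -0.64 in PC9. DUT, which hydrolyses dUTP, changed by 0.34 in H1299 and 0.38 in CL1-5 against -0.84 in A549, -0.10 in CL1-0, -0.10 in H1792 and -0.51 in PC9. All 3 separated the sets. CDA, the deaminase that inactivates DAC, was listed at 0 in H1299 and 0.383 in CL1-5 against 15.6 in A549, 0.088 in CL1-0, 5.53 in H1792 and 53.1 in PC9 FPKM in Mock. After DAC CDA was at 1.77 in H1299 and 2.44 in CL1-5 against 16.3 in A549, 0.596 in CL1-0, 25.7 in H1792 and 76.2 in PC9. CDA was low in Mock in H1299, CL1-5 and CL1-0, so its Mock level did not follow the sets. It was higher after DAC in every line. Its change was higher in both rising lines than in every falling line, with the largest difference of change on this list. DCK, the kinase that activates DAC, changed by -0.25 in H1299 and 0.0094 in CL1-5 against -0.21 in A549, 0.17 in CL1-0, -0.89 in H1792 and -0.20 in PC9, and its sets overlapped. SAMHD1, a dNTP hydrolase, moved by more than 1 in CL1-5 alone, with changes of 0.26 in H1299 and 2.26 in CL1-5 against 0.67 in A549, -0.13 in CL1-0, 0.10 in H1792 and 0.10 in PC9. SLC29A1, the other equilibrative transporter, changed by -0.022 in H1299 and 0.60 in CL1-5 against -0.74 in A549, -0.28 in CL1-0, -0.78 in H1792 and 0.027 in PC9.

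The DNA methylation machinery, which DAC acts on, showed 3 of 14 genes higher (21.4%) and 1 lower (7.14%) without overlap, beside 12.5% and 7.54% of all genes. The medians were 0.10 in H1299 and -0.023 in CL1-5 against 0.46 in A549, 0.15 in CL1-0, -0.37 in H1792 and -0.089 in PC9. DNMT1, the maintenance methyltransferase, changed by 0.44 in H1299 and 0.27 in CL1-5 against 0.07 in A549, -0.079 in CL1-0, -0.62 in H1792 and -0.26 in PC9. UHRF1, which brings DNMT1 to hemimethylated DNA, changed by 0.56 in H1299 and 0.98 in CL1-5 against 0.54 in A549, 0.10 in CL1-0, -0.99 in H1792 and -0.24 in PC9, with A549 just under H1299. DNMT3B, a de novo methyltransferase, was higher after DAC in all 6 lines, with changes of 1.35 in H1299 and 0.78 in CL1-5 against 1.34 in A549, 0.47 in CL1-0, 0.21 in H1792 and 0.96 in PC9, and did not separate the sets.

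Outside the replication, mitosis and G1-S lists 174 of the 201 genes remained whose change was higher in the rising lines with a gap of at least 0.5. The 10 with the largest gap were TUBA3E, NES, TUBA3C, TUBA3D, PCLAF, MYEOV, METTL7B, TNFRSF8, GMPR and EPCAM. The α-tubulin genes TUBA3E, TUBA3D and TUBA3C, whose products are building blocks of microtubules, are near-identical copies, so reads may be divided among them in part arbitrarily. TUBA3E stood at 0.136 in H1299 and 0.0239 in CL1-5 against 0.0605 in A549, 0.11 in CL1-0, 0.0523 in H1792 and 0.25 in PC9 FPKM in Mock. After DAC its FPKM was 48.7 in H1299 and 13.5 in CL1-5 against 1.79 in A549, 2.47 in CL1-0, 1.0 in H1792 and 1.46 in PC9. It was near 0 in every Mock library and higher after DAC in every line, most in H1299 and CL1-5. TUBA3D reached 47.3 in H1299 and 14.6 in CL1-5 against 5.54 in A549, 3.23 in CL1-0, 0.861 in H1792 and 1.16 in PC9 after DAC. TUBA3C reached 43.6 in H1299 and 6.66 in CL1-5 against 0.892 in A549, 0.849 in CL1-0, 0.134 in H1792 and 0.167 in PC9. PCLAF, a PCNA-binding protein of replicating cells, was not on the replication list, and its Mock FPKM was 16.3 in H1299 and 4.12 in CL1-5 against 10.5 in A549, 8.75 in CL1-0, 4.52 in H1792 and 3.72 in PC9. After DAC it was 76.7 in H1299 and 12.5 in CL1-5 against 11 in A549, 9.47 in CL1-0, 3.91 in H1792 and 3.68 in PC9, with changes of 2.23 in H1299 and 1.57 in CL1-5 and of -0.21 to 0.11 in the falling lines.

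The promoters of the TUBA3 genes are shown because these genes moved together and can be compared letter by letter. TUBA3E lies at chr2:130198390-130198689, minus strand, TUBA3D at chr2:131475869-131476168, plus strand, and TUBA3C at chr13:19181775-19182074, minus strand, from RefSeq on GRCh38.p14, 5′ to 3′ on the gene's strand, 250 bases before to 50 after the start. Capitals mark CCAAT in the printed orientation, and both strands were searched. At the best ungapped alignment TUBA3E and TUBA3D were identical at 225 of 298 bases (75.5%), TUBA3E and TUBA3C at 176 of 300 (58.7%), and TUBA3D and TUBA3C at 171 of 298 (57.4%). The printed orientation held 6 matches in TUBA3E and 5 each in TUBA3D and TUBA3C, and CCAAT on either strand occurred at least once in 35.7% of all promoters of the table and in 36.9% of those of the genes compared.
TUBA3E: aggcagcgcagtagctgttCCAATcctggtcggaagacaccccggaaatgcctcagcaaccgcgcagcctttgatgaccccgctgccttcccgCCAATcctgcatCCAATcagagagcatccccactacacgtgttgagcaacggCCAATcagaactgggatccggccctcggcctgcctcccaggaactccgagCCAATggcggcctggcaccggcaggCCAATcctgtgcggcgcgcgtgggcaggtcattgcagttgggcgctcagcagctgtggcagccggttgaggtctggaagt
TUBA3D: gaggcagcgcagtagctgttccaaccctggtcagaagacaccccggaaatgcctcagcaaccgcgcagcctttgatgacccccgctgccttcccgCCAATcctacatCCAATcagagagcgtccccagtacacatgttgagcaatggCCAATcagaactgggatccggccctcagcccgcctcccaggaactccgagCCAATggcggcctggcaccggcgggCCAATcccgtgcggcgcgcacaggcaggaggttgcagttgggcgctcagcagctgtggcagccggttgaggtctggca
TUBA3C: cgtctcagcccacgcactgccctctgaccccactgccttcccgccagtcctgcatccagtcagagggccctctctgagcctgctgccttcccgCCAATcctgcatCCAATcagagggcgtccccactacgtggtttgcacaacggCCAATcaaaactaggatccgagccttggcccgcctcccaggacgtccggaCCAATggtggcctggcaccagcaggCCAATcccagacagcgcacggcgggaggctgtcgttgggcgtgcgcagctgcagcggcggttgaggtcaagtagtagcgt

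NES encodes nestin, an intermediate filament protein of progenitor cells, at chr1:156638555-156647199 (GRCh37). Its FPKM was 0.352 in H1299 and 0.119 in CL1-5 against 0.647 in A549, 0.724 in CL1-0, 22.3 in H1792 and 8.22 in PC9 in Mock. DAC-treated cells had 7.53 in H1299 and 7.13 in CL1-5 against 1.53 in A549, 2.42 in CL1-0, 24.1 in H1792 and 16.3 in PC9. The rising lines began lowest and after DAC lay above A549 and CL1-0 and below H1792 and PC9. MYEOV, a gene often amplified in myeloma and other tumours, stood at 0.381 in H1299 and 2.3 in CL1-5 against 24.7 in A549, 0.0225 in CL1-0, 34.3 in H1792 and 35.3 in PC9 FPKM in Mock. It changed by 4.34 in H1299 and 2.92 in CL1-5 against -0.14 in A549, 1.48 in CL1-0, -0.0078 in H1792 and -0.041 in PC9. EPCAM changed by 4.1 in H1299 and 2.41 in CL1-5 against 0.83 in A549, 1.15 in CL1-0, -0.19 in H1792 and -0.0096 in PC9. METTL7B, a membrane-bound methyltransferase, was under 0.1 FPKM in both rising lines and in PC9 in Mock. In the rising lines it reached 1.03 in H1299 and 0.301 in CL1-5, while its change in the falling lines was -1.17 to 0.57. TNFRSF8, the receptor CD30, changed by 2.13 in H1299 and 1.94 in CL1-5, against -1.0 to 0.51 in the falling lines. GMPR, which turns GMP into IMP, changed by 2.24 in H1299 and 1.84 in CL1-5, against -0.53 to 0.55.

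**Figure D2:**
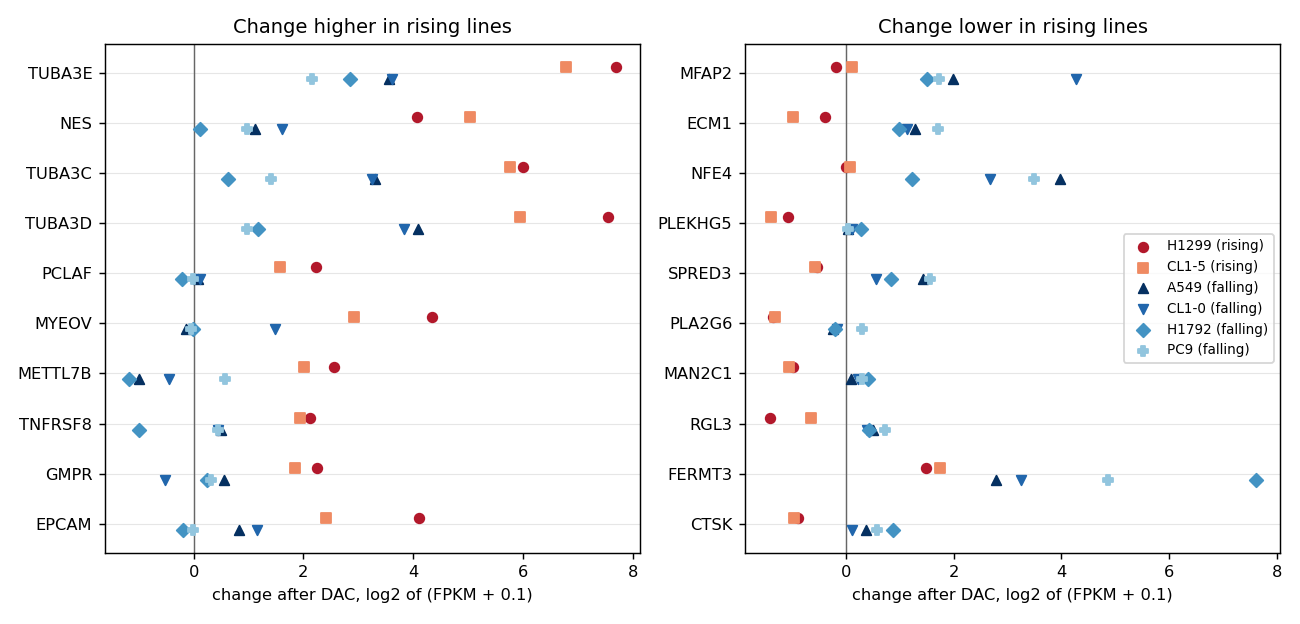
Change after DAC, as log2 of (FPKM + 0.1), of the 10 genes with the largest gap in each direction, with 1 point per cell line, red for rising and blue for falling lines. On the left the red points lie to the right of every blue point, for TUBA3E at 7.69 and 6.78 against at most 3.62, and on the right they lie to the left, for CTSK at -0.90 and -0.97 against at least 0.12.

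Families of growing cells were then counted. Of 29 genes of ribosome biogenesis 18 had a higher change without overlap (5 with the gap) and 0 a lower one, beside 12.5%, 1.5% and 7.54% of all genes. Their medians were 0.63 in H1299 and 0.20 in CL1-5 against -0.47 in A549, -0.11 in CL1-0, -0.47 in H1792 and -0.36 in PC9. NOP56, a core protein of box C/D snoRNPs, changed by 0.65 in H1299 and 0.45 in CL1-5 against -0.70 in A549, -0.024 in CL1-0, -0.38 in H1792 and -0.48 in PC9. NCL, the nucleolar protein nucleolin, changed by 0.68 in H1299 and 0.40 in CL1-5 against -0.49 in A549, -0.24 in CL1-0, -0.65 in H1792 and -0.36 in PC9. Of 23 cholesterol synthesis genes 11 were higher (47.8% beside 12.5%) and 0 lower.

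Further families were chosen after values had been seen, and their counts stand beside 12.5% of all genes higher, 1.5% with the gap, and 7.54% lower. Of 19 measured tubulins 15 were higher without overlap, 8 with the gap, and the median difference of change was 1.1. TUBB, a β-tubulin, changed by 0.81 in H1299 and 0.26 in CL1-5 against -0.87 in A549, -0.25 in CL1-0, -0.96 in H1792 and -0.41 in PC9. TUBB2A and TUBB2B may share reads. TUBB2A changed by 1.27 in H1299 and 0.53 in CL1-5, against -0.56 to 0.11 in the falling lines. TUBB2B changed by 1.17 in H1299 and 0.48 in CL1-5, against -0.62 to 0.10. Of 21 chaperonins and heat shock proteins 16 were higher without overlap and 0 lower, with a median difference of 0.79. HSPE1, the small partner of the mitochondrial chaperonin HSPD1, changed by 1.64 in H1299 and 0.67 in CL1-5 against -1.2 in A549, -0.12 in CL1-0, -0.12 in H1792 and -0.52 in PC9. Of 37 proteasome subunits 22 were higher, but H1792 had a median of 0.17, above 0 as in the rising lines. Of 76 mitochondrial ribosomal proteins 31 were higher and 1 lower, and of 39 nuclear transport genes 19 were higher and 0 lower. Other families chosen in the same way held smaller shares of such genes. Of 84 cytosolic ribosomal proteins 2 were higher (2.38%) and 0 lower, with medians of -0.58 in H1299 and -0.087 in CL1-5 against -1.0 in A549, -0.31 in CL1-0, 0.40 in H1792 and -0.44 in PC9. Of 20 tRNA synthetases 4 were higher, of 18 snoRNA host genes 2 (11.1%) and of 37 histone cluster genes 6 (16.2%), and 0 of each were lower. Of 315 ZNF zinc finger genes 16 were higher (5.08%) and 34 lower (10.8%).

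In the other direction, 112 genes had a lower change in the rising lines with a gap of at least 0.5. The 10 largest gaps were those of MFAP2, ECM1, NFE4, PLEKHG5, SPRED3, PLA2G6, MAN2C1, RGL3, FERMT3 and CTSK. MFAP2, a protein of elastic microfibrils, was listed at 19.2 in H1299 and 4.11 in CL1-5 against 0 in A549, 0 in CL1-0, 5.55 in H1792 and 0.941 in PC9 FPKM in Mock. After DAC the levels were 16.9 in H1299 and 4.48 in CL1-5 against 0.298 in A549, 1.84 in CL1-0, 15.9 in H1792 and 3.35 in PC9. MFAP2 was thus higher after DAC in all 4 falling lines and close to its Mock level in H1299 and CL1-5. ECM1, a secreted matrix protein, changed by -0.40 in H1299 and -0.98 in CL1-5 against 1.27 in A549, 1.14 in CL1-0, 0.98 in H1792 and 1.71 in PC9. FERMT3, the kindlin of blood cells that activates integrins, was higher after DAC in all 6 lines, with changes of 1.48 in H1299 and 1.75 in CL1-5 against 2.78 in A549, 3.24 in CL1-0, 7.62 in H1792 and 4.87 in PC9. NFE4 was listed at 0 in both H1299 libraries, so its change of 0 there only reflects that, and in CL1-5 it changed by 0.077.

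PLEKHG5, a guanine nucleotide exchange factor, was lower after DAC in both rising lines and near its Mock level in the others, with changes of -1.07 in H1299 and -1.4 in CL1-5 against 0.036 in A549, 0.11 in CL1-0, 0.28 in H1792 and 0.035 in PC9. PLA2G6, a calcium-independent phospholipase, stood at 1.19 in H1299 and 1.23 in CL1-5 against 1.22 in A549, 2.0 in CL1-0, 1.56 in H1792 and 1.52 in PC9 FPKM in Mock, a level the lines shared. Its changes were -1.36 in H1299 and -1.32 in CL1-5 against -0.24 in A549, -0.16 in CL1-0, -0.21 in H1792 and 0.29 in PC9. MAN2C1, an α-mannosidase of the cytosol, changed by -0.98 in H1299 and -1.05 in CL1-5 against 0.10 in A549, 0.23 in CL1-0, 0.41 in H1792 and 0.30 in PC9. CTSK, the collagen-cleaving cathepsin K, changed by -0.90 in H1299 and -0.97 in CL1-5 against 0.36 in A549, 0.12 in CL1-0, 0.88 in H1792 and 0.58 in PC9. RGL3, a Ral exchange factor, changed by -1.42 in H1299 and -0.65 in CL1-5, against 0.38 to 0.73 in the falling lines, from 0.819 FPKM in H1299 and 0.754 in CL1-5 in Mock. Of 47 lysosomal hydrolases, a family chosen after values had been seen, 10 were lower without overlap (5 with the gap) and 4 higher, and of 19 collagens, also chosen so, 5 were lower and 1 higher. These stand beside 7.54% of all genes lower, 0.838% with the gap, and 12.5% higher.

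The list medians of interferon, inflammation and stress genes overlapped between the sets. Interferon-stimulated genes had medians of 0.89 in H1299 and 2.52 in CL1-5 against 1.96 in A549, 0.12 in CL1-0, 0.20 in H1792 and 0.31 in PC9. Thus CL1-5 and A549, from different sets, were the lines with the largest changes. Of 38 such genes 6 were higher without overlap, 15.8% against 12.5% of all genes, and 0 lower. The mean change was higher in the rising than in the falling lines for 34 of the 38, beside 7041 of all 13363 genes. ISG15, a ubiquitin-like protein induced by interferon, changed by 1.31 in H1299 and 3.21 in CL1-5 against 4.71 in A549, -0.31 in CL1-0, 0.97 in H1792 and 0.75 in PC9. Inflammatory targets of NF-κB had medians of 0.76 in H1299 and 0.60 in CL1-5 against 0.42 in A549, 0.03 in CL1-0, 2.11 in H1792 and 0.64 in PC9. H1792 was highest, and 1 of 24 was higher without overlap (4.17% beside 12.5%). The mean change was higher in the rising lines for 8 of the 24. CCL20, a chemokine, changed by 3.01 in H1299 and 4.37 in CL1-5 against 1.97 in A549, 0.59 in CL1-0, 3.28 in H1792 and -0.039 in PC9, with H1792 reaching 101 FPKM.

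Stress response genes of the ISR and UPR, which react to amino acid shortage and unfolded protein, had medians of -0.88 in H1299 and -0.14 in CL1-5 against -0.55 in A549, -0.08 in CL1-0, 0.38 in H1792 and 0.41 in PC9. Of these genes 4 of 25 were lower without overlap (16.0%) and 0 higher, and the counts here stand beside 7.54% of all genes lower and 12.5% higher. The mean change was higher in the rising lines for 3 of the 25, beside 7041 of all 13363 genes. TRIB3, a target of ATF4, changed by -3.07 in H1299 and 0.18 in CL1-5 against -1.63 in A549, -0.25 in CL1-0, 0.74 in H1792 and 0.89 in PC9, with A549 among the lines in which it was lower. Cancer testis genes, normally silenced by methylation outside the germ line, had medians of 1.33 in H1299 and 1.28 in CL1-5 against 5.5 in A549, 2.43 in CL1-0, 4.36 in H1792 and 3.57 in PC9. The median change was thus lower in both rising lines than in any falling line, while gene by gene 1 of 28 was higher and 2 were lower without overlap. The median levels were not lower. They were 12.2 FPKM in H1299 and 0.457 in CL1-5 in Mock, against 0.0105 to 0.312 in the falling lines. After DAC they were 57.1 in H1299 and 12.4 in CL1-5 against 7.83 to 13.9. MAGEA4, a cancer testis gene, was already at 268 FPKM in H1299 and 58.9 in CL1-5 in Mock and at 207 in CL1-0, while in A549, H1792 and PC9 it went from at most 0.0937 to 69, 15.9 and 40.0. Epithelial genes had medians of 1.54 in H1299 and 0.81 in CL1-5 against 0.83 in A549, 0.46 in CL1-0, 0.19 in H1792 and -0.083 in PC9. Here 3 of 19 were higher without overlap and 0 lower. Mesenchymal genes had medians of 0.19 in H1299 and -0.20 in CL1-5 against 0.38 in A549, 0.25 in CL1-0, 0.10 in H1792 and 0.40 in PC9. Here 2 of 16 were higher (12.5%, the share of all genes) and 2 lower, and of 23 secreted factors 2 were higher and 1 lower.

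The balance of higher and lower calls depended on the scaling and the filter. With the deposited FPKM 201 genes were higher and 112 lower, 64.2% higher. Rescaled to a common sum (TPM) it was 76 and 240, 24.1% higher, and the median difference of change over all genes moved from 0.03 to -0.14. With a limit of 5 on the mean FPKM it was 158 and 21 (88.3% higher), with a limit of 0.1 it was 245 and 242 (50.3%), and with no filter 284 and 273 (51.0%). Without H1299 it was 500 and 426 (54.0%), and without CL1-5 1193 and 741. Without CL1-0 it was 346 and 244, without H1792 433 and 311, and without A549 286 and 184, where fewer lines have to be apart for a gene to be counted.

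**Figure D3:**
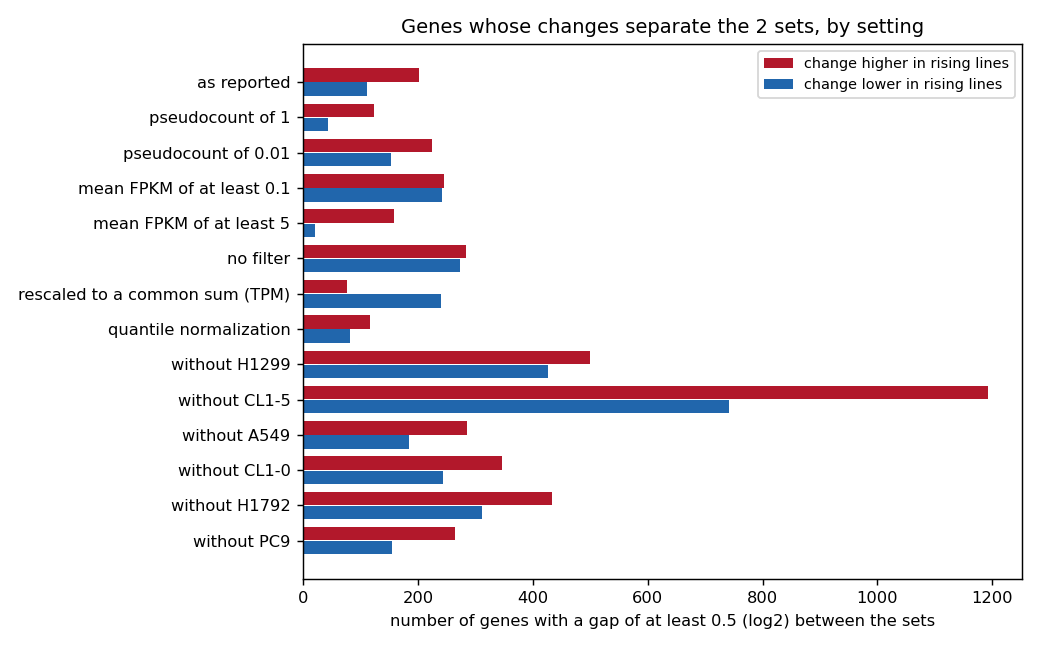
Number of genes (horizontal axis) whose change was higher (red) or lower (blue) in both rising lines with a gap of at least 0.5 on the log2 scale, as reported and under each other setting. The red bar is the longer one in every setting but the rescaling to a common sum, where it is 76 against 240.

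Before treatment, 794 genes (5.94%) had a higher Mock level in both rising lines than in every falling line, 186 (1.39%) with a gap of at least 0.5 on the log2 scale, and 938 (7.02%) had a lower one, 278 (2.08%) with the gap. Rescaled to TPM the gap counts were 301 higher and 190 lower, so the balance turned, and the median Mock difference over all genes moved from -0.06 to 0.15. With 2 against 4 libraries, limma on log2(FPKM + 0.1) called 0 genes higher (0%) and 0 lower (0%) at an adjusted p of 0.05, and its smallest adjusted p was 0.843. At an unadjusted p under 0.05 limma had 241 genes higher and 394 lower, and voom on the recovered reads called 0 and 0 at the adjusted threshold and had 405 and 308 at the unadjusted one. Without CL1-5 limma called 167 higher and 197 lower, with the remaining H1299 library assumed to vary like the falling ones, and without CL1-0 it called 13 and 5. Without H1299 the gap counts were 729 and 744, and without CL1-5 1493 and 2107. Without CL1-0 they were 424 and 688, without H1792 392 and 474, and without PC9 285 and 413. The Mock levels below are therefore differences that this design could not call.

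Of the 50 replication genes 0 were higher and 3 lower in Mock without overlap, and of 15 uptake genes 1 was higher and 3 lower, against 5.94% and 7.02% of all genes. Epithelial genes had the lowest median Mock difference of the lists, -2.62 on the log2 scale, and 4 of 19 were lower, but CL1-0, a falling line, had a median of 0.0447 FPKM, below H1299 with 0.0691 and CL1-5 with 0.22. Of 38 interferon-stimulated genes 7 were higher in Mock, 3 with the gap, and 0 lower. Of 37 histone cluster genes, a family chosen after values had been seen, 8 were higher, 4 with the gap, and these genes share sequence, so reads may be divided among them.

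The 10 largest gaps upward in Mock were those of NTM, HIST1H2BB, NRN1, BNC1, MMP1, H2AFB1, HIST1H2BH, SERPINA1, EFEMP2 and ZNF98. NTM, a neural adhesion protein, stood at 4.16 FPKM in H1299 and 4.04 in CL1-5 and was listed at 0 in all 8 falling libraries. MMP1, a collagenase of invading cells, stood at 5.39 in H1299 and 46.4 in CL1-5 against 0 in A549, 0.516 in CL1-0, 0.0818 in H1792 and 0 in PC9 FPKM, a difference of 6.45 ± 1.24 (SE) on the log2 scale (adjusted p = 0.843, limma). BNC1, a zinc finger factor of squamous epithelium and germ cells, stood at 1.7 in H1299 and 3.15 in CL1-5 against 0.0779 in A549, 0.0265 in CL1-0, 0.0168 in H1792 and 0.0702 in PC9. NRN1, the neuronal surface protein neuritin, stood at 7.74 in H1299 and 3.17 in CL1-5 against 0.0802 in A549, 0.182 in CL1-0, 0.156 in H1792 and 0 in PC9. EFEMP2, a fibulin of elastic fibres, stood at 2.86 in H1299 and 2.6 in CL1-5 against 0.294 in A549, 0.306 in CL1-0, 0.314 in H1792 and 0.143 in PC9. SERPINA1, α1-antitrypsin, stood at 5.02 in H1299 and 2.72 in CL1-5 against 0.276 in A549, 0 in CL1-0, 0.0164 in H1792 and 0 in PC9, so it was listed at 0 in CL1-0 and PC9. H2AFB1, HIST1H2BB and HIST1H2BH are histone genes with near-identical copies, and their levels are uncertain.

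The 10 largest gaps downward were those of SPP1, AADAC, TSC22D3, P4HTM, LIMCH1, HOXA3, FOXA1, MID1, STAT6 and RND3. SPP1, the secreted phosphoprotein osteopontin, stood at 2.38 in H1299 and 2.26 in CL1-5 against 128 in A549, 947 in CL1-0, 128 in H1792 and 298 in PC9 FPKM, a difference of -6.75 ± 0.83 (SE) (adjusted p = 0.843, limma). FOXA1, a pioneer factor of lung epithelium, stood at 0.76 in H1299 and 0.38 in CL1-5 against 5.16 in A549, 5.23 in CL1-0, 7.61 in H1792 and 9.32 in PC9, a difference of -3.39 ± 0.53 (SE) (adjusted p = 0.843, limma). TSC22D3, the glucocorticoid-induced leucine zipper, stood at 0.066 in H1299 and 0.0619 in CL1-5 against 5.72 in A549, 1.74 in CL1-0, 5.87 in H1792 and 3.13 in PC9. HOXA3, a homeobox factor, stood at 0.337 in H1299 and 0.403 in CL1-5 against 3.98 in A549, 6.24 in CL1-0, 3.58 in H1792 and 6.9 in PC9. RND3, a small GTPase, stood at 1.15 in H1299 and 2.49 in CL1-5 against 16 in A549, 40.7 in CL1-0, 39.6 in H1792 and 13.2 in PC9. These genes were chosen for that gap, so both rising lines lie below every falling line, CL1-0 included, by selection, and nothing is read from it.

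**Figure D4:**
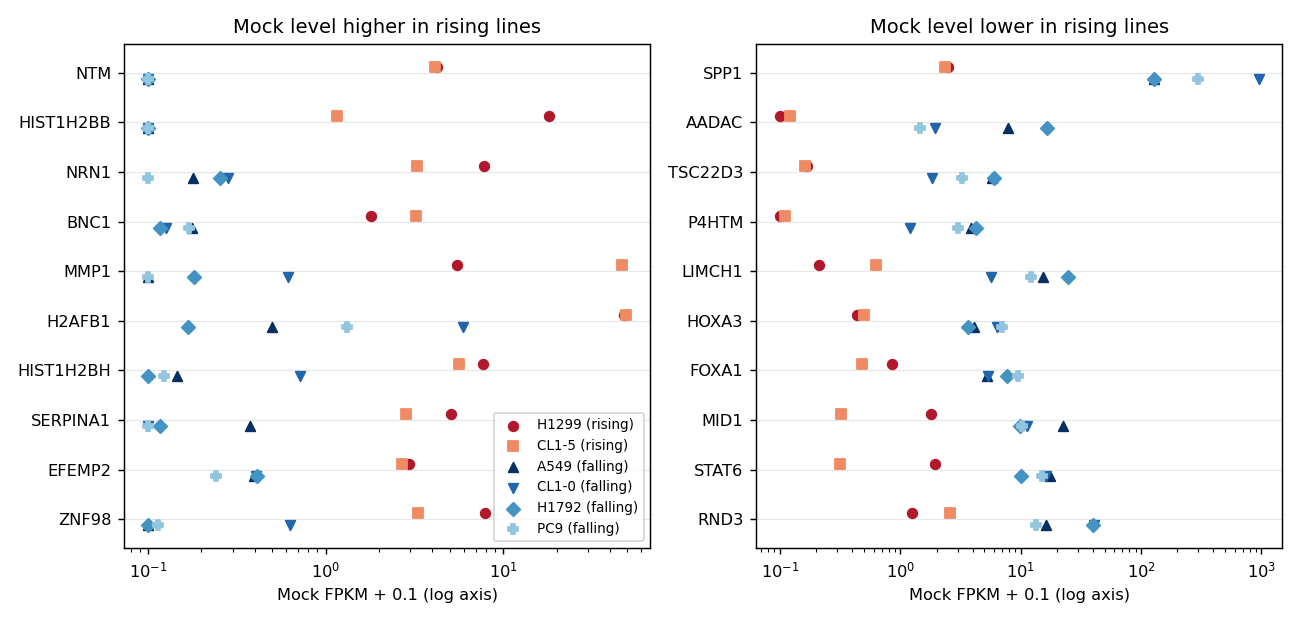
Mock FPKM + 0.1 on a log axis for the 10 genes with the largest gap in each direction, with 1 point per Mock library, red for rising and blue for falling lines. For SPP1 the red points lie at 2.38 and 2.26 FPKM and the blue ones from 128 to 947, and points at 0.1 are genes listed at 0 FPKM.

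After DAC, 133 of the 186 genes that were higher in Mock with the gap (71.5%) still did not overlap, 76 with the gap, and 189 of the 278 that were lower (68.0%), 122 with the gap. Their median differences were 2.14 in Mock and 1.73 after DAC, and -2.60 and -2.07. Over all genes 240 had both a lower Mock level and a higher change in the rising lines without overlap, 14.4% of those with a higher change and 25.6% of those with a lower Mock level. Another 149 had a higher Mock level and a lower change, 14.8% and 18.8%. A higher Mock level and a higher change met in 25 genes, and a lower level and a lower change in 17. The Mock library enters both measures with opposite sign, so these overlaps are given as a description.

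With a gap of at least 0.5 in both measures, 17 genes had a lower Mock level and a higher change, among them CASP10, CLCN4, COL1A1, GLA, GRB7, HMGB3, HTATIP2, MLLT11, NES, NEXN, PGRMC1, PRPS1, PTGES, SLC29A2, STAT6 and SVIP. PRPS1, which makes the ribose phosphate that nucleotides are built on, stood at 21.8 in H1299 and 21 in CL1-5 against 75.5 in A549, 66.7 in CL1-0, 36 in H1792 and 59.3 in PC9 FPKM in Mock. With DAC it stood at 37.3 in H1299 and 27.6 in CL1-5 against 43.2 in A549, 52.5 in CL1-0, 20.7 in H1792 and 48 in PC9. Mock levels of the rising lines were the lowest, and after DAC H1792 was the lowest. HMGB3, a chromatin protein of proliferating cells, changed by 0.38 in H1299 and 0.48 in CL1-5 against -0.66 in A549, -0.29 in CL1-0, -0.64 in H1792 and -0.34 in PC9, from 15.8 FPKM in H1299 and 19.2 in CL1-5 and 30.9 to 68.7 FPKM in the falling lines. PGRMC1, a heme-binding membrane protein, stood at 21.5 in H1299 and 21.8 in CL1-5 against 90.6 in A549, 65.7 in CL1-0, 66.9 in H1792 and 148 in PC9 in Mock. DAC left it at 34.8 in H1299 and 28.5 in CL1-5 against 79.6 in A549, 60.4 in CL1-0, 42.1 in H1792 and 103 in PC9, and the sets still did not overlap. STAT6, the factor that carries the interleukin-4 signal, at chr12:57489191-57525922 (GRCh37), stood at 1.83 in H1299 and 0.212 in CL1-5 against 17.4 in A549, 16.2 in CL1-0, 9.89 in H1792 and 15 in PC9 FPKM in Mock. STAT6 then stood at 3.55 in H1299 and 3.23 in CL1-5 against 19 in A549, 15 in CL1-0, 12 in H1792 and 15.7 in PC9 after DAC. It was higher after DAC in both rising lines and stayed below every falling line.

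CASP10, a caspase of death receptor signalling, was at 0.0967 FPKM in H1299 and 0.141 in CL1-5 in Mock against 0.78 to 2.98 in the falling lines. It changed by 1.68 in H1299 and 1.29 in CL1-5 against 0.33 in A549, 0.52 in CL1-0, 0.20 in H1792 and 0.10 in PC9. GLA, the lysosomal α-galactosidase, was at 13.7 FPKM in H1299 and 12.2 in CL1-5 against 23.5 to 93.8. GLA changed by 0.92 in H1299 and 0.57 in CL1-5 against -0.88 in A549, -0.061 in CL1-0, 0.038 in H1792 and -0.26 in PC9. HTATIP2, a short-chain reductase, was at 7.77 FPKM in H1299 and 13.7 in CL1-5 against 20.7 to 60.8. HTATIP2 changed by 0.93 in H1299 and 0.85 in CL1-5 against -0.10 in A549, 0.12 in CL1-0, 0.33 in H1792 and -0.067 in PC9. PTGES, which makes prostaglandin E2, changed by 2.21 in H1299 and 2.06 in CL1-5 against 1.51 in A549, 0.29 in CL1-0, 1.3 in H1792 and -0.12 in PC9, but with a pseudocount of 1 its difference of change turned to -0.036, so its direction is not settled. COL1A1, a chain of type I collagen, changed by 2.42 in H1299 and 2.11 in CL1-5 against 1.58 in A549, -0.22 in CL1-0, 0.13 in H1792 and 0.29 in PC9, from 0.0819 FPKM in H1299 and 0.579 in CL1-5 and 1.06 to 68.6 in the falling lines.

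The 8 genes with a higher Mock level and a lower change were CARD8, CPQ, MALAT1, NTM, PAPLN, PLEKHG5, SERPINA1 and SPRED3. MALAT1, a long nuclear RNA, stood at 27.9 in H1299 and 37.9 in CL1-5 against 18.9 in A549, 7.17 in CL1-0, 11.2 in H1792 and 8.44 in PC9 FPKM in Mock. Its level after DAC was 21.5 in H1299 and 29.1 in CL1-5 against 25.6 in A549, 19.1 in CL1-0, 16.8 in H1792 and 15.9 in PC9, so the levels drew together. SPRED3, an inhibitor of Ras signalling, stood at 13.3 in H1299 and 2.49 in CL1-5 against 0.748 in A549, 0.672 in CL1-0, 0.914 in H1792 and 0.41 in PC9 in Mock. Its level after DAC was 9.13 in H1299 and 1.64 in CL1-5 against 2.18 in A549, 1.04 in CL1-0, 1.71 in H1792 and 1.4 in PC9, with H1299 the highest in both. PAPLN, the matrix protein papilin, changed by -0.87 in H1299 and -1.82 in CL1-5 against 0.94 in A549, 0.036 in CL1-0, 0.50 in H1792 and 0.41 in PC9. CPQ, a carboxypeptidase, changed by -1.11 in H1299 and -0.39 in CL1-5 against 0.60 in A549, 0.26 in CL1-0, 1.66 in H1792 and 0.67 in PC9. CARD8, a sensor of the inflammasome, changed by -0.72 in H1299 and -0.89 in CL1-5 against 0.18 in A549, -0.0036 in CL1-0, 0.79 in H1792 and -0.093 in PC9. The change of 0 of NTM in the falling lines only reflects that it was listed at 0.

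**Figure D5:**
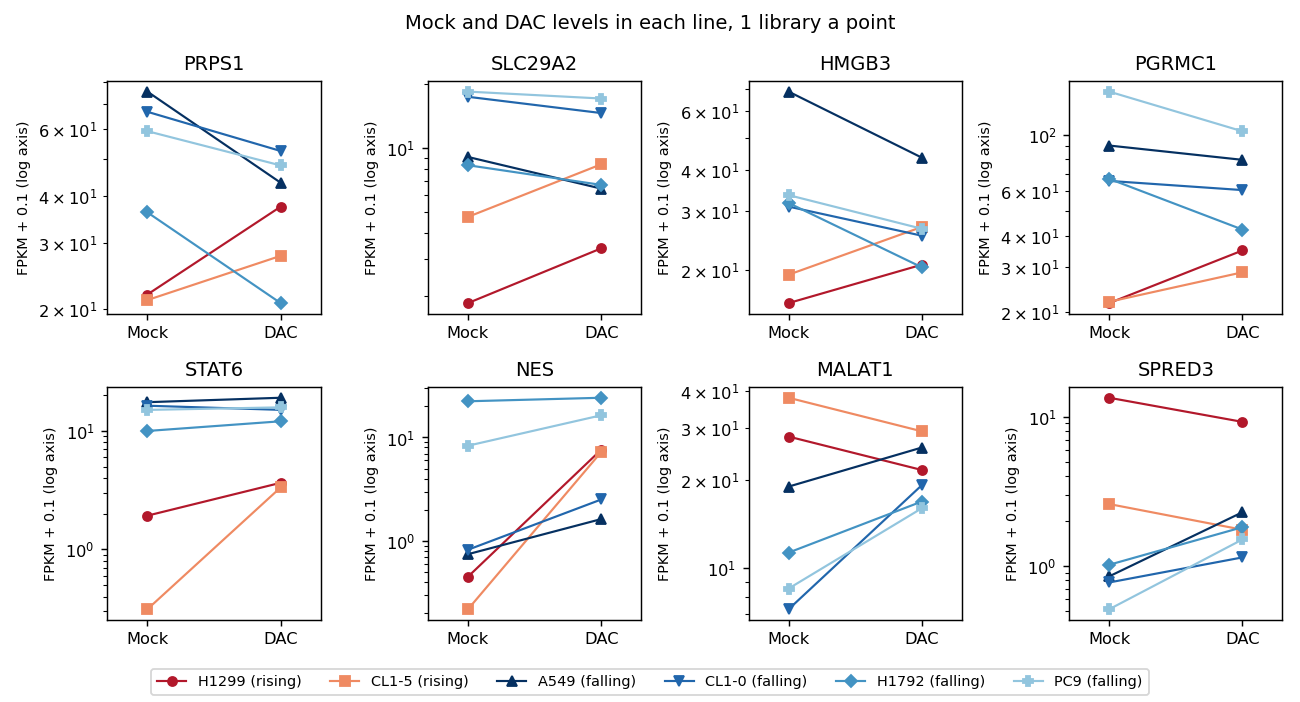
FPKM + 0.1 on a log axis in Mock and after DAC for 8 genes with a gap of at least 0.5 in both Mock level and change, each line joining the 2 libraries of a cell line, red for rising and blue for falling lines. For PRPS1 the red lines go from 21.8 to 37.3 and from 21 to 27.6 FPKM while all blue lines go down, and for MALAT1 the red lines go down and the blue ones up.

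The promoters of PRPS1, NES and STAT6 are shown as examples of genes lower in Mock and with a higher change. Only the first listed entry of a gene was used. Whether that start is the one in use in these lines was not tested. They lie at chrX:107628260-107628559, plus strand, at chr1:156677358-156677657, minus strand, and at chr12:57110240-57110539, minus strand, again from RefSeq on GRCh38.p14, 250 bases before to 50 after the start. Capitals mark CCAAT in PRPS1, with 1 match in the printed orientation, and the dinucleotide CG, the site of DNA methylation, in NES with 14 and in STAT6 with 12. The median promoter held 26 CG among the genes compared, 31 among replication genes, 13 among cancer testis genes and 14 over the whole table. Methylation itself was not analysed here.
PRPS1: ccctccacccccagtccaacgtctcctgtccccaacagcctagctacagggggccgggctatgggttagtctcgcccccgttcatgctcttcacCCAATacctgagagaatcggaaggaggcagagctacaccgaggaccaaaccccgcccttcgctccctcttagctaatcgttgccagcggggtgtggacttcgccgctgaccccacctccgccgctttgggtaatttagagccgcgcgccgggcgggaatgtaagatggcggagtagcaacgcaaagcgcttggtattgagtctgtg
NES: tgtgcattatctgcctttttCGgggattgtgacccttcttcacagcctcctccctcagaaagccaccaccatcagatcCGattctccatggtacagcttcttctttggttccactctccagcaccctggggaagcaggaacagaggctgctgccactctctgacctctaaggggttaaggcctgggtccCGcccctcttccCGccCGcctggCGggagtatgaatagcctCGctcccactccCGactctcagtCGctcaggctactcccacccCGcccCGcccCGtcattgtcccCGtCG
STAT6: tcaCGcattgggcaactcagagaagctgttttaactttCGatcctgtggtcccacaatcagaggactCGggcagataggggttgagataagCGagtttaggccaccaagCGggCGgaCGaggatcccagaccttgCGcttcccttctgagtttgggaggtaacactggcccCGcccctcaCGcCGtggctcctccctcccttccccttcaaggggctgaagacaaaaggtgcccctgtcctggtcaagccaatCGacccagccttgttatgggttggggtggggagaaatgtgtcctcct

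Omni-ATAC-seq, which maps open chromatin, was compared for 1 line of each set, H1299 and A549, with 1 library per treatment and so without a test. The peak lists held 45354 peaks in H1299 Mock, 63541 in H1299 after DAC, 58734 in A549 Mock and 78199 in A549 after DAC, with unknown depth. Of the 174 genes with a higher change outside the proliferation lists 152 had a symbol in the peak lists, and these were followed. Of them 73.7% had a peak within 3000 bp of the start in H1299 Mock, 77.0% in H1299 after DAC, 80.9% in A549 Mock and 81.6% in A549 after DAC. Over 11386 genes compared the shares were 84.7%, 86.6%, 86.9% and 88.6%. For 90 of the 112 genes with a lower change they were 84.4%, 92.2%, 90.0% and 87.8%. Of 198 genes lower in Mock 82.3% had a peak in H1299 Mock and 90.9% in A549 Mock, and of 148 genes higher in Mock 86.5% and 79.1%, so the line with the lower Mock level had the lower share each time. Genes without a symbol or without a peak in any of the 4 libraries are left out of all these shares. This kept 198 of 278 genes, 148 of 186 and 11386 of 13363, so the shares of the sets are not fully comparable.

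TUBA3D had no promoter peak in Mock in either line and had one after DAC in both, with a fold enrichment of 3.23 in H1299 and 5.07 in A549. TUBA3E had one in H1299 after DAC only (2.63) and in A549 in Mock only (3.09), and its RNA was higher after DAC in both lines. NES had a peak in H1299 in Mock and after DAC (2.85 and 2.43) and in A549 after DAC only (3.49). METTL7B had none in H1299 Mock and one after DAC (3.18), and in A549 it had peaks of 6.44 and 5.61. EPCAM had no peak in either H1299 library and had peaks of 3.45 and 3.66 in A549. CASP10, CLCN4 and HOXA3, all lower in Mock in the rising lines, likewise had peaks in A549 only. SPP1, TSC22D3, LIMCH1, FOXA1, MID1 and RND3, also lower in Mock there, had a peak in H1299 Mock. Between the Mock libraries the fold enrichment was higher in H1299 than in A549 for FOXA1 (4.29 against 3.45) and MID1 (8.12 against 6.14). For SPP1 (5.03 against 5.06), TSC22D3, LIMCH1 and RND3 it was lower. The median over all peaks was 3.64 in H1299 Mock and 4.36 in A549 Mock. These gene values were not adjusted for that difference. PCLAF, PRPS1, HMGB3, STAT6 and SLC29A2 had a promoter peak in all 4 libraries, with STAT6 at 3.80 and 4.49 in H1299 and at 3.88 and 3.74 in A549. Epithelial genes had a peak in 52.6% of 19 in H1299 Mock and in 73.7% after DAC, against 89.5% and 94.7% in A549.

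The genes that separated the sets were also described by length, gene type and level, without a test. Genes with a higher change and a gap of at least 0.5 had a median transcript length of 0.704 times that of all genes compared, a median mean FPKM of 15.7, and were protein coding in 94.0%. Those with a lower change had 1.27 times the length, a median mean FPKM of 2.53 and 79.5% protein coding genes, against 5.94 FPKM and 87.0% over all genes. The genes lower in Mock were short too (0.749 times), with 74.5% protein coding. Of them 29.5% were below 0.5 FPKM in Mock in both rising lines, against 4.75% of all genes. Those higher in Mock had 0.961 times the length and 80.1% protein coding genes. Of these 16.1% were below 0.5 FPKM in Mock in the falling lines, against 1.83% of all genes. Both of these gene sets were chosen by their Mock levels. The shares below 0.5 FPKM follow in part from that choice, so nothing is read from them. The filter on mean FPKM covers more falling than rising libraries, and its part in these shares was not tested. Among the 201 genes with a higher change 27 belonged to the replication, mitosis and G1-S lists.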

How the data were processed

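The 12 mRNA-seq libraries hold Mock and DAC cells of 6 lines, and 4 Omni-ATAC-seq libraries of A549 and H1299 were used beside them. By the paper's methods, the authors used RSEM and bowtie2 on hg19 and deposited FPKM per gene after DESeq2 normalization. The labels' processing notes name TopHat2 2.1.1 as well, DESeq2 1.24.0, BWA 0.7.17-r1188, MACS2 2.2.5 and ChIPseeker 1.20.0. The same table holds a mean signal per gene (baseMean), deposited by the authors and used to recover whole reads, and log2 fold changes with p-values of the authors' own comparison, which were not used. The deposited peak lists give a fold enrichment, a ratio over background, and a −log10 q-value for each peak, from the authors' MACS2 run. Peak files of CL1-5 and PC9 were not used here, because file names and labels exchange the lines. The number of value columns without a sample was 0. Changes were computed as log2((DAC + 0.1)/(Mock + 0.1)) for genes averaging 1 FPKM or more. Mock levels on the log2(FPKM + 0.1) scale were compared by limma 3.58.1 under R 4.3.3 (2 rising against 4 falling libraries, intensity trend, Benjamini-Hochberg adjustment at 0.05). A gap is the distance between the nearest lines of the sets, and 0.5 was required. Fold differences on this scale understate those of genes with low values. The script steps were checked on simulated data. Recovered reads numbered 22234485 to 25303899 per library, and 59735913 and 52634234 in H1299. Named genes are, outside pseudogenes and unnamed clones, the 10 largest gaps each way in change and in Mock level, the highest and lowest member of each list by difference of change, members of the replication, G1-S, p53, uptake and methylation lists, and genes with the gap in both measures. NOP56, NCL, TUBB, TUBB2A, TUBB2B, TRIB3 and ISG15 were named after their values were seen, as members of their lists. HSPE1 was the highest member of the ribosome biogenesis list. The sets of lines and the gene lists were chosen with earlier results of these data known. Gene positions are those of a GENCODE annotation of GRCh37, and promoters those of RefSeq, with only the first listed entry of each gene used. Alternatives were pseudocounts of 1 and 0.01, other filters, TPM, quantile normalization, gaps of 0.25 and 1, other limma settings, voom, each line left out, and for peaks a window of 1000 bp or a q under 0.01. Figures were drawn with matplotlib 3.10.9 in Python 3.11.15.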

Additional observations from a re-analysis of the deposited data

Results flagged for a closer look

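Some genes moved up in every line of one set and down in every line of the other. The lines were set apart by their change in proliferation genes, so the difference was not tested. The mean change in rising minus falling lines was 1.145 for PRPS1, 1.145 for SVIP, 1.131 for SLC29A2, 0.9143 for HMGB3, 0.9125 for PGRMC1 and 0.688 for MLLT11, all above 0 in rising and below 0 in falling lines. It was -1.966 for ECM1, -1.817 for PAPLN, -1.65 for SPRED3, -1.547 for RGL3, -1.543 for CPQ, -1.416 for CTSK, -1.351 for PLEKHG5, -1.275 for MAN2C1 and -1.209 for MALAT1, all in the opposite direction. The median over a list behaved the same way for replication (0.8239), mitosis (0.7409), G1-S regulators (0.6475), ribosome biogenesis (0.7121), tubulins (1.1), chaperonins and heat shock proteins (0.7889) and nuclear transport (0.374), again as differences of change on the log2 scale that were not tested. These signs hold for the deposited FPKM. Summed FPKM was lower after DAC than in Mock in A549 (326951 against 416327) and CL1-0 (305528 against 346387). On a common sum the mitosis median of CL1-0 (-0.025) and the nuclear transport median of A549 (-0.060) would lie above 0. The signs of gene changes near 0 depend on the scaling too.

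In other results 1 of the 4 falling lines stood apart from the rest, by a gap to its nearest neighbour that took most of the range, which chance gives in about 1 in 20 groups. The gap took 0.9587 of the range for the change of TNFRSF8, where H1792 was lowest, 0.9209 for that of MYEOV, where CL1-0 was highest, and 0.853 for that of PLA2G6, where PC9 was highest. In Mock it took 0.9257 for ZNF98 with CL1-0 highest, 0.9085 for EFEMP2 with PC9 lowest, 0.8851 for SERPINA1 with A549 highest and 0.8331 for MID1 with A549 highest. For the median change of interferon-stimulated genes it took 0.8984, with A549 highest.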

How the results depend on the processing

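The number of genes with a gap in change was 201 higher and 112 lower as reported. It was 124 and 44 with a pseudocount of 1, 621 and 353 with a gap of 0.25, and 21 and 14 with a gap of 1. Lower changes numbered 242 with a mean FPKM of at least 0.1, 21 with at least 5 and 273 with no filter. After rescaling to TPM 76 were higher and 240 lower, and after quantile normalization 116 were higher. With 1 line left out the counts ran from 264 to 1193 higher and from 154 to 741 lower. Mock levels with a gap, 186 higher and 278 lower as reported, were recounted under alternatives chosen after seeing the data. These gave 122 and 167 with a pseudocount of 1, 313 and 513 with a mean FPKM of at least 0.1, 87 and 153 with at least 5, 341 and 538 with no filter, 301 higher and 190 lower after TPM, which turned the balance, 386 and 481 with a gap of 0.25, and 49 and 103 with a gap of 1. With 1 line left out they ran from 241 to 1493 higher and from 372 to 2107 lower. For limma the counts were 12 higher with no filter and 2 higher without the intensity trend, and with 1 line left out 0 to 167 higher and 0 to 197 lower. The causes were not tested, beyond fewer lines having to be apart when 1 is left out. The difference of change of PTGES turned to -0.036 with a pseudocount of 1, and the median of the leukocyte markers to -0.431 with a mean FPKM of at least 0.1 and to -0.111 with no filter, as more markers entered. Of 724 alternative values for named genes' changes 610 moved by less than the spread between lines, and of 724 for their Mock levels 649 did. No paired analysis was possible because each change is already taken within a line and the Mock libraries hold only 1 related pair across the sets, CL1-0 and CL1-5, which limma treated as independent. H1299 has more reads than the others, and 1 library per line and treatment limits every value.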
